A study of Zea mays with 6 samples.

Results

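The SBP-box genes tasselsheath4 (tsh4, Zm00001d020941), unbranched2 (ub2, Zm00001d031451), unbranched3 (ub3, Zm00001d052890), teosinte glume architecture1 (tga1, Zm00001d049822) and liguleless1 (lg1, Zm00001d002005) were followed in young maize ears. They were chosen by identifier, and all 5 were among the 45578 genes of the count table and among the 22947 that passed the filter on low counts. The filter did not depend on 1 genotype, since the lowest count of any of them in a library was 113 reads. Neither the table nor the gene reference used here pairs these identifiers with names. The names are those given with the gene list.

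RNA had been sequenced from whole developing ears of at most 0.5 cm in 6 libraries, 2 for each of 3 genotypes: wild type, a CRISPR line labelled RHW1 knockout (rhw1-1), and the line labelled RHW1 overexpression (OE#1). The title of the study links RHW1 to the width of the husk, the leaves that enclose the ear. The knockout stands for 1 allele and the overexpression for 1 line. The inbred background, the promoter that drives the transgene and the pooling of ears are not stated in the labels, nor is it said that replicate libraries came from separate plants, so p-values measure only the spread between these libraries. Total counts per library ran from 21094445 to 23999698. The 2 libraries of a genotype were not 1 library deposited again: their chi-square averaged 2.23 to 2.62 a gene, above the value near 1 that sampling of reads would give. The RHW1 transcript and markers of ear tissue were not analysed here, because no identifier is paired with their names, so the genotype and tissue labels were not checked against them.

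SBP-box proteins are transcription factors found only in plants and green algae that bind DNA through a zinc-coordinating domain, with GTAC as the core of their recognition sequence. In maize several of them mark the boundary between a meristem and the lateral organs it forms. tsh4 suppresses the bracts that would otherwise subtend spikelet pairs and branches, and ub2 and ub3 act redundantly with it and limit how many primordia, and so how many kernel rows, an ear lays down. tga1 shapes the glume, and is the gene whose maize allele exposes the kernel that teosinte encloses. lg1 is needed for the ligule and auricle, which separate the blade of a leaf from its sheath. Transcripts of tsh4, ub2, ub3 and tga1 are known targets of the microRNA miR156, while lg1 belongs to a subgroup of the family that lacks the miR156 site.

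Of the 5 genes, ub2, ub3 and lg1 were higher in the overexpression line than in wild type and in the knockout, and tsh4 and tga1 passed the test in no comparison. The rises were small: 1.33-fold for ub2, 1.20-fold for ub3 and 1.51-fold for lg1 against wild type. The result for lg1 against wild type depended on wild type replicate 2. Of all tested genes, 15.3% passed the test as higher in overexpression than in wild type, and 14.1% as higher than in the knockout. None of the 5 genes differed between knockout and wild type by the test, which 8.52% of all tested genes passed. Levels are given as CPM, read counts scaled to a common library size with TMM factors. They are not corrected for transcript length, so levels are compared between libraries and not between genes. Fold changes and adjusted p-values come from edgeR's quasi-likelihood test over all 22947 genes with Benjamini-Hochberg adjustment, and a gene was called at an adjusted p below 0.05. In whole ears, a change in the number of cells that express a gene and a change in its RNA per cell cannot be told apart.

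**Figure D1:**
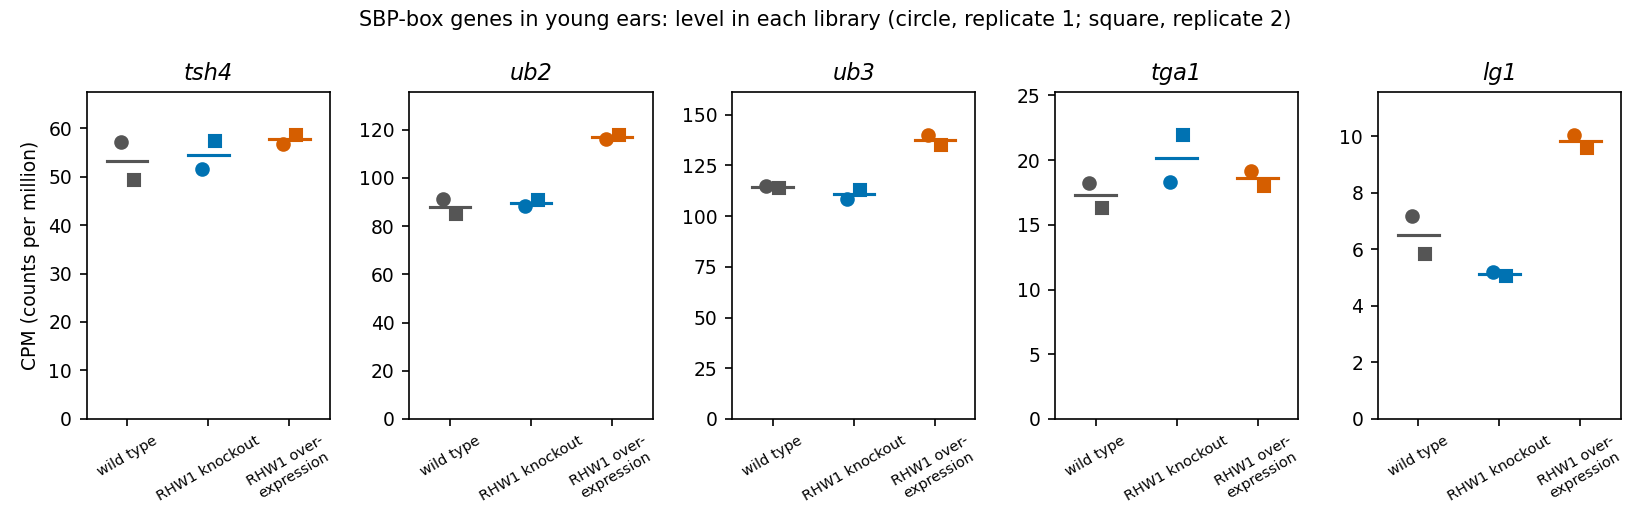
Level of each SBP-box gene (CPM, vertical axis from 0 and scaled for each gene) in the 3 genotypes, with 1 point per library and a bar at the mean of each genotype. Both overexpression libraries lie above the other 4 for ub2, ub3 and lg1, at 116 and 118, 140.2 and 135, and 10.1 and 9.59 CPM, while the genotypes overlap for tsh4. Of all tested genes, 31.4% have overexpression above wild type without overlap, and 30.7% above the knockout.

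Among the regulators of bracts and row number, ub2 had 91.2 and 84.9 CPM in wild type replicates 1 and 2, 88.4 and 91.0 CPM in knockout, and 116 and 118 CPM in the overexpression line. Wild type and knockout overlapped, and both overexpression libraries were higher than all 4 of them. Of all tested genes, 31.4% had overexpression above wild type without overlap, and 30.7% had it above the knockout. The share that met both conditions was not counted. The lower overexpression library exceeded the higher wild-type library 1.27-fold, whereas wild-type replicates were 1.07-fold apart. The group levels were 88.1 ± 4.42 CPM in wild type, 89.7 ± 1.89 CPM in knockout and 117 ± 1.30 CPM in overexpression (SD, n = 2). On the log2 scale it rose by 0.41 over wild type (SE 0.05, adjusted p = 4.81e-09, edgeR), and by 0.38 over the knockout (SE 0.05, adjusted p = 2.21e-08, edgeR).

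Its close relative ub3 was also highest in overexpression. It stood at 115 and 114 CPM in wild type, 109 and 113 CPM in knockout, and 140.2 and 135 CPM in the overexpression line. The overexpression libraries were again above all others. Knockout lay just below wild type without overlap, by a margin of 1.01-fold between the nearest libraries, which was smaller than the 1.04-fold between the knockout replicates. Group levels were 114.4 ± 0.675 CPM in wild type, 111 ± 3.03 CPM in knockout and 138 ± 3.60 CPM in overexpression (SD, n = 2). The log2 rise of ub3 was 0.27 over wild type (SE 0.04, adjusted p = 3.46e-06, edgeR) and 0.31 over the knockout (SE 0.04, adjusted p = 1.92e-07, edgeR).

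The third of these redundant regulators, tsh4, had 57.1 and 49.4 CPM in wild type, 51.5 and 57.3 CPM in knockout, and 56.7 and 58.7 CPM in the overexpression line. All 3 genotypes overlapped, and the spread within wild type, 1.16-fold between replicates, was wider than any difference between genotype means. Group levels were 53.2 ± 5.42, 54.4 ± 4.06 and 57.7 ± 1.39 CPM in wild type, knockout and overexpression (SD, n = 2). The log2 fold change of overexpression against wild type was 0.12, with a 95% interval of -0.02 to 0.25 (adjusted p = 0.186, edgeR). That interval allows a rise of up to 1.19-fold and lies below the interval of ub2 in the same comparison, 0.32 to 0.50, but a difference between the responses of these genes was not itself tested. Against the knockout the log2 fold change was 0.09 (95% interval -0.04 to 0.22, adjusted p = 0.351, edgeR). The outcome for tsh4 rested on the wild-type libraries: without wild type replicate 1 its log2 fold change in overexpression was 0.22 and it was called (adjusted p = 0.0312, edgeR), against adjusted p-values of 0.0312 to 0.901 over the 14 alternatives.

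Added together, the reads of tsh4, ub2 and ub3 made up 263 and 248.3 CPM in wild type, 248.5 and 261 CPM in knockout and 313 and 312 CPM in overexpression. Since ub2 and ub3 contribute most of these reads, the higher sums in overexpression restate their values.

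The balance between ub2 and ub3 was described by the share of their joint reads that came from ub2. This is a share of reads, not of transcripts, since gene lengths were not used. It was 44.2% (95% Wilson interval 42.8 to 45.7%) and 42.7% (41.3 to 44.2%) in wild type, 44.9% (43.5 to 46.3%) and 44.6% (43.2 to 46.1%) in the knockout, and 45.3% (44.0 to 46.6%) and 46.6% (45.4 to 47.9%) in overexpression. Both overexpression libraries had the highest shares, yet the interval of overexpression replicate 1 overlapped those of all 4 libraries of the other genotypes. That of overexpression replicate 2 lay wholly above the interval of wild type replicate 2 and overlapped the other 3. The intervals cover counting error only. Reads that match both genes, if any, could have been assigned to either or dropped, and this was not tested.

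**Figure D2:**
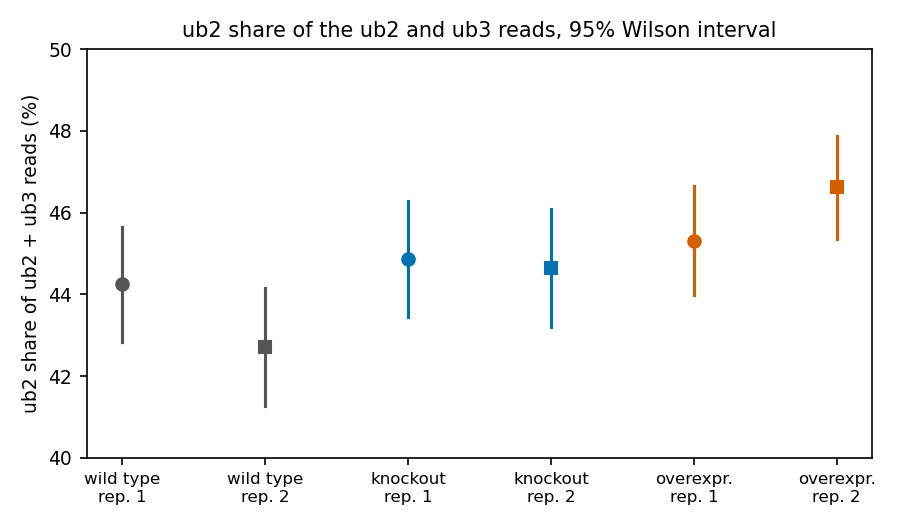
Share of the joint ub2 and ub3 reads that came from ub2 (%, on an axis that does not start at 0) in each of the 6 libraries, with 95% Wilson intervals for counting error. Shares ran from 42.7% in wild type replicate 2 to 46.6% in overexpression replicate 2, and most intervals overlap.

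The glume regulator tga1 had 18.3 and 16.3 CPM in wild type, 18.3 and 22.0 CPM in knockout and 19.2 and 18.0 CPM in overexpression. The knockout libraries were the most unlike each other, 1.20-fold apart, and wild type and overexpression overlapped. Knockout stood above wild type without overlap, though by 1.002-fold between the nearest libraries. Group levels were 17.3 ± 1.40 CPM in wild type, 20.1 ± 2.59 CPM in knockout and 18.6 ± 0.787 CPM in overexpression (SD, n = 2). Knockout lay above wild type by 0.22 on the log2 scale (SE 0.11, adjusted p = 0.237, edgeR), with a 95% interval from -0.001 to 0.44. Overexpression differed from wild type by 0.10 (95% interval -0.12 to 0.33, adjusted p = 0.522, edgeR) and from the knockout by -0.11 (95% interval -0.33 to 0.10, adjusted p = 0.477, edgeR). With 369 to 490 reads per library, differences of the size seen for ub2 lay outside the overexpression interval, and those of the size seen for ub3 lay inside it.

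The ligule gene lg1 had the fewest reads, 113 to 228 in a library, and the widest range over genotypes as a fold, though not in CPM. It had 7.17 and 5.83 CPM in wild type, 5.20 and 5.07 CPM in knockout, and 10.1 and 9.59 CPM in the overexpression line. No pair of genotypes overlapped, and the order of levels was knockout, wild type, overexpression. Of all tested genes, 49.2% did not overlap between knockout and wild type. The share was 63.2% between overexpression and wild type and 61.1% between overexpression and knockout. How many genes were separate in every pair was not counted. The 2 wild-type libraries were 1.23-fold apart, with wild type replicate 2 only 1.12-fold above the higher knockout library. Group levels were 6.50 ± 0.9496, 5.13 ± 0.0957 and 9.82 ± 0.331 CPM in wild type, knockout and overexpression (SD, n = 2).

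Set against wild type, lg1 rose in overexpression by 0.59 on the log2 scale (SE 0.15, adjusted p = 0.00287, edgeR). Against the knockout the rise was 0.93 (SE 0.16, adjusted p = 1.78e-05, edgeR), a 1.91-fold difference with a 95% interval of 1.53 to 2.38-fold. The difference between knockout and wild type, -0.34 on the log2 scale (SE 0.16, adjusted p = 0.223, edgeR), did not pass the test, so knockout and wild type were neighbours in the order that these data do not separate. The call against wild type depended on wild type replicate 2: without it the log2 fold change was 0.45 and the adjusted p was 0.0775 (edgeR), with adjusted p-values of 0.00152 to 0.0775 over the 14 alternatives. The call against the knockout held in all 14, which include runs that left out a wild-type library and so kept both compared groups whole.

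**Figure D3:**
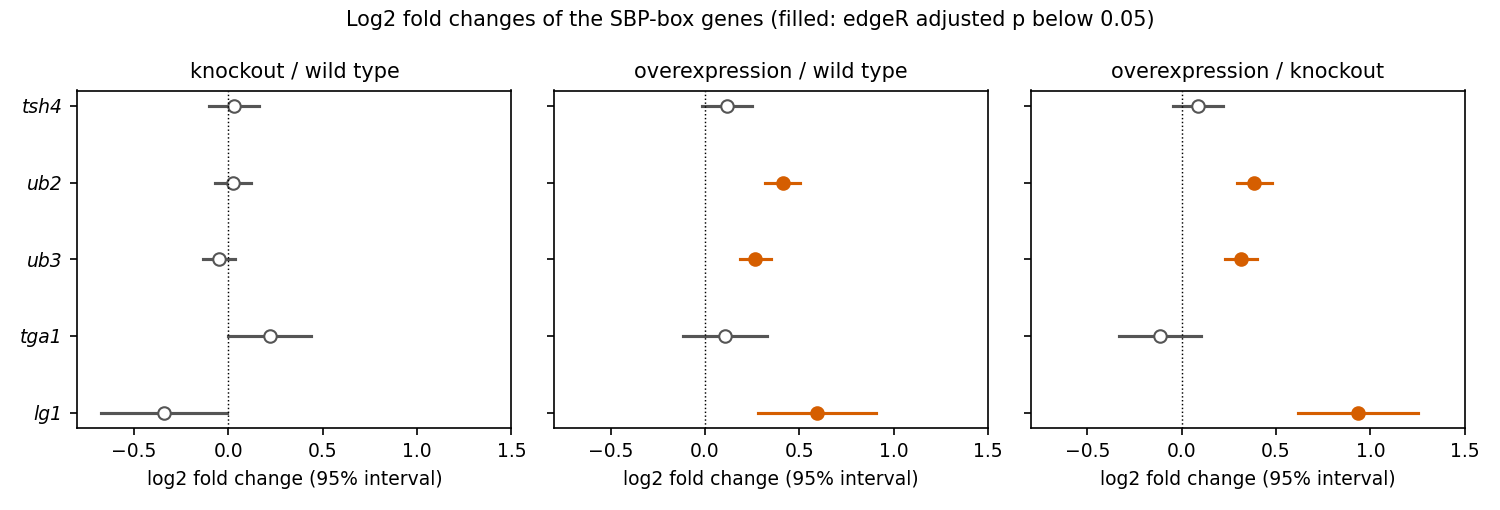
Log2 fold change of each gene (horizontal axis, points) with its 95% interval (lines) in the 3 comparisons; filled orange points were called by edgeR at an adjusted p below 0.05. ub2, ub3 and lg1 are called in both comparisons with overexpression, from 0.27 for ub3 against wild type to 0.93 for lg1 against the knockout, and no gene is called between knockout and wild type.

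Read as a group, none of the 5 genes was called by edgeR between knockout and wild type, where 8.52% of all tested genes were called. At an unadjusted p below 0.05 the count was 1, namely lg1, beside 21.3% of all tested genes. DESeq2, which gave lg1 no adjusted p, called 0 of the 5 genes and 4.3% of all tested genes, and limma-voom called 0 and 8.5%. The CPM of the 2 genotypes did not overlap for 3 of the 5 genes, beside 49.2% of all tested genes. Knockout was higher for tga1 and lower for ub3 and lg1. The median log2 fold change of the 5 was 0.03, and that of all tested genes was 0.001.

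Against wild type, 3 of the 5 genes were higher in overexpression and 0 lower, where 29.2% of all tested genes were called, 15.3% as higher and 13.9% as lower. The same 3 genes did not overlap in CPM, beside 63.2% of all tested genes, 31.4% with overexpression higher. The median log2 fold change was 0.27 for the 5 genes and -0.005 for all tested genes. Between overexpression and knockout the count was again 3 higher and 0 lower, where 26.7% of all tested genes were called, 14.1% as higher and 12.6% as lower. The 3 also did not overlap, beside 61.1% of all tested genes, 30.7% with overexpression higher, and the medians were 0.31 and -0.003. These comparisons share the overexpression libraries, so their calls are not separate evidence. With 5 genes chosen by name, the counts describe these genes and not the SBP-box family.

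The size of each change was ranked among those of all tested genes. In overexpression against wild type, 9.50% of tested genes had a larger absolute log2 fold change than lg1, 18.0% a larger one than ub2 and 32.8% a larger one than ub3, while 64.7% exceeded tsh4 and 68.1% exceeded tga1. Against the knockout, 3.84% of tested genes exceeded lg1, 19.7% ub2, 26.1% ub3, 63.2% tga1 and 71.3% tsh4. In knockout against wild type, where none of the 5 genes was called, 13.8% exceeded lg1 and 25.3% tga1. There, 75.8% exceeded ub3, 85.0% tsh4 and 86.6% ub2.

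**Figure D4:**
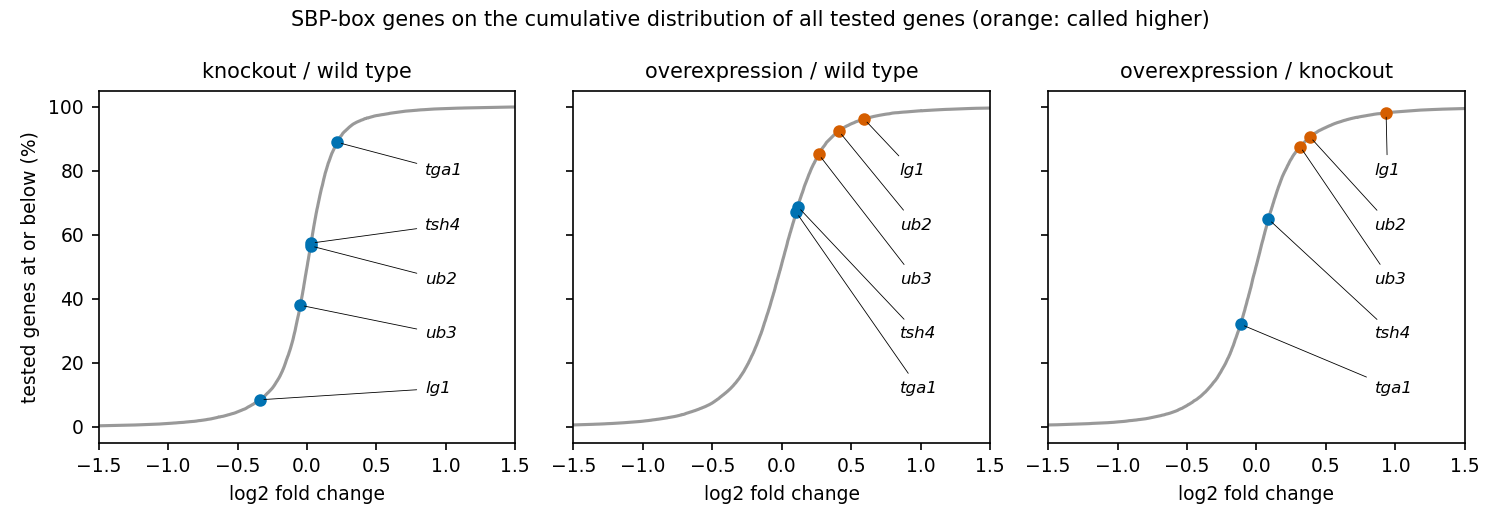
Cumulative distribution of the log2 fold changes of all 22947 tested genes (grey line; vertical axis, percent of genes at or below a value) with the 5 SBP-box genes marked; orange points were called higher. In both comparisons with overexpression lg1, ub2 and ub3 lie on the upper shoulder of the curve, with lg1 at 0.59 and 0.93, and in knockout against wild type tsh4 and ub2 lie near its middle, at 0.03 and 0.03.

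Across the 6 libraries the patterns of ub3, ub2 and lg1 were alike. Pearson's r of log2 CPM was 0.960 for ub2 with ub3, 0.947 for ub3 with lg1 and 0.908 for ub2 with lg1. Values for tsh4 with these genes were lower, 0.672 with ub2, 0.555 with ub3 and 0.558 with lg1. tga1 stood apart from all except tsh4, with r of 0.125 with ub2, -0.002 with ub3, -0.16 with lg1 and 0.600 with tsh4. These are descriptions over 6 libraries that share 3 genotypes. Among ub2, ub3 and lg1, r mostly records that these genes were high in both overexpression libraries. This does not hold for tsh4 with tga1, neither of which was called in overexpression. Both were lowest in wild type replicate 2, at 49.4 and 16.3 CPM. Of all tested genes, 1.90% were more like ub3 than ub2 was, and 579 of 19676 genes whose mean log2 CPM was at least 1 reached an r of 0.95 or more with ub3, and 682 with ub2.

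The genes most like ub2 and ub3, the pair with the highest CPM among the 5, carry no name in the sources used here. They were sought among the 19676 genes whose mean log2 CPM was at least 1. For ub3 they were Zm00001d008211 (r = 0.998), with 6.13 and 5.96 CPM in wild type, 4.74 and 5.29 CPM in knockout and 15.7 and 13.5 CPM in overexpression, and Zm00001d011285 (r = 0.998). For ub2 they were Zm00001d052294 (r = 0.998), with 7.13 and 6.53 CPM in wild type, 6.83 and 7.13 CPM in knockout and 11.2 and 11.6 CPM in overexpression, and Zm00001d007141 (r = 0.998). These genes were picked for this likeness, so their rise in overexpression is no separate result.

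The microRNA side of the pathway was barely visible in these libraries. miR156 and miR529 pair with overlapping sites in SBP-box transcripts, and miR172 acts on AP2-type regulators in the same developmental pathway. Of 11 zma-MIR156 genes, 4 zma-MIR172 genes and 1 zma-MIR529 gene in the table, 3 had any read and 0 passed the filter on low counts, so none was tested. For the precursor gene zma-MIR156j the wild-type libraries held 4 and 2 reads, the knockout libraries 3 and 2 and the overexpression libraries 6 and 3, and the remaining 2, zma-MIR156d and zma-MIR172e, had 5 and 6 reads over all 6 libraries. The other 13 had 0 reads in every library; a count of 0 allows for up to 3 per library. These are reads of the precursor transcripts, so the levels of mature microRNAs were not measured.

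Over 14 other ways of processing the counts, 6 of which left out 1 library each, ub2 and ub3 were called higher in overexpression every time, against wild type and against the knockout. Settings other than a left-out library changed no call of the 5 genes and moved their log2 fold changes little, for lg1 from 0.59 to 0.60 in overexpression against wild type. With 1 library left out, lg1 against wild type ranged from 0.45 to 0.75. In each comparison, some of the runs with a library left out dropped one of the third genotype. Both compared groups then stayed whole, so those runs test the comparison little.

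**Figure D5:**
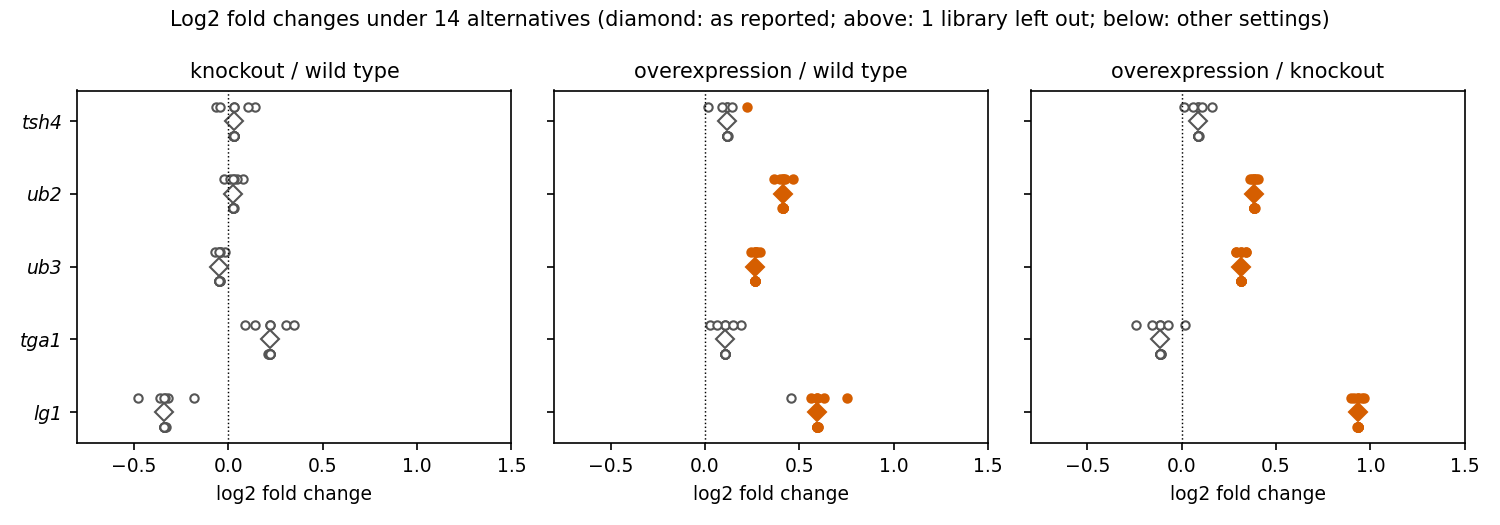
Log2 fold changes (horizontal axis) of the 5 genes as reported (diamonds), with 1 library left out (points above) and under the other settings (points below); filled orange marks were called at an adjusted p below 0.05. Rises of ub2 and ub3 in overexpression stay called throughout, lg1 loses its call against wild type once (0.45), and tsh4 gains one once (0.22).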

How the data were processed

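RNA from young maize ears of 3 genotypes was sequenced in 6 libraries. The authors deposited raw read counts per gene, whole numbers that are not normalized. HISAT2 2.1.0, Trimmomatic 0.35, StringTie, HTSeq and edgeR 3.32.1 appear in the submitters' processing notes, with no role stated. What build, annotation and strand setting were used, and how reads matching several genes were treated, is not given in the sources used here. Whether reads of antisense or near-identical genes were separated is therefore not known. Per the labels' protocols, an NEBNext Ultra II kit was used.

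All 6 libraries entered 1 edgeR 4.0.16 fit (R 4.3.3) with 3 group means, filterByExpr (minimum count 10), TMM factors of 0.991 to 1.01 and the quasi-likelihood F-test, with 3 residual degrees of freedom and 33.2 from the prior over all genes. P-values were adjusted over all 22947 tested genes in each of 3 comparisons. SEs are the log2 fold change divided by the square root of F, and 95% intervals use the moderated degrees of freedom. Pearson's r used log2 CPM with a prior count of 2. The fit was also run on counts simulated from its own means and dispersions, which cannot show whether its model suits these data. Alternatives were RLE size factors, 2 other filters, DESeq2 1.42.0, limma-voom (limma 3.58.1), fits of 2 groups, a replicate block, robust dispersions and each library left out.

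The genes and lists were chosen with earlier results of these data known. Named were the 5 genes, microRNA genes of the miR156, miR529 and miR172 families with at least 10 reads (zma-MIR156d and zma-MIR172e were added after their counts were seen), and the 2 genes most like each of the 2 genes of highest CPM. The search for likeness covered genes whose mean log2 CPM was at least 1. Of 43789 Zm00001d identifiers, 0 matched the RefSeq gene table (Zm-B73-REFERENCE-NAM-5.0), so no coordinates are given. The number of columns left unused was 0.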

Additional observations from a re-analysis of the deposited data

How the results depend on the processing

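Of 209 log2 fold changes of the 5 genes over 14 alternatives, 203 kept their direction and their side of the threshold. DESeq2 gave lg1 no adjusted p between knockout and wild type, so that value is left out. Runs that left out a library of the third genotype, which change a comparison little, are counted among the alternatives. The number of the 5 genes called stayed at 0 in the knockout and at 3 between overexpression and knockout under every alternative; against wild type it was 2 to 4 in overexpression with 1 library left out and 3 otherwise. Without wild type replicate 2, lg1 lost its call against wild type (0.45, adjusted p = 0.0775, edgeR), and without wild type replicate 1 tsh4 gained one (0.22, adjusted p = 0.0312, edgeR). Sign changes arose only in values not called: between knockout and wild type, tsh4 became -0.0675 without wild type replicate 2 and -0.04 without knockout replicate 2, and ub2 became -0.0214 without wild type replicate 2; between overexpression and knockout, tga1 became 0.0199 without knockout replicate 2. With 1 library left out, log2 fold changes between knockout and wild type ranged from -0.0675 to 0.14 for tsh4, -0.0214 to 0.0797 for ub2, -0.07 to -0.02 for ub3, 0.09 to 0.35 for tga1 and -0.48 to -0.18 for lg1. Against wild type, overexpression ranged from 0.0183 to 0.22 for tsh4, 0.36 to 0.46 for ub2, 0.24 to 0.29 for ub3, 0.03 to 0.19 for tga1 and 0.45 to 0.75 for lg1, and against the knockout tga1 ranged from -0.24 to 0.0199.

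Over all genes, 1954, 6698 and 6120 were called in knockout against wild type, overexpression against wild type and overexpression against knockout. DESeq2 called 986, 4455 and 3946; the cause was not tested. With 1 library left out the counts were 909 to 2129, 4823 to 6754 and 4335 to 6027, from fewer libraries. Replicate numbers come from the library titles, which name no batch. Over all tested genes, the correlation of deviations between libraries with the same number was -0.009, -0.01 and 0.008 for the 3 pairs of genotypes. A shared batch that acts on part of the genes was not tested. With the replicate block 1743, 6465 and 5850 genes were called, and the same 0, 3 and 3 of the 5 genes. No microRNA gene of the 3 families was called under any alternative, and only the setting with no low-count filter tested any, 3 of 16. A prior count of 0.5 changed no direction of r between the genes. Depth limits lg1 most, at 113 to 228 reads in a library, and with 2 libraries per genotype 1 library can decide a call.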
